A study of Mus musculus with 6 samples.

Results

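The amacrine transmitter and identity genes described here are Gad1, Gad2, Slc32a1, Slc6a9, Chat, Slc18a3, Th, Tfap2a and Tfap2b. They were chosen by name, as the rows of the deposited count table that carry these symbols, and make up 9 of the 31169 genes in that table. The study used mice as a model of glaucoma, in which microbeads placed in the front chamber of the eye slow the outflow of fluid and raise the pressure inside it. Polyadenylated RNA from whole retina was sequenced in 6 libraries, 3 per group. Both groups were C57BL/6 mice whose eyes were injected at 1 month of age with a volume that the labels give as 1 µL and the study's methods as a larger one, and whose retinas were taken 4 weeks later, at 2 months. The saline group received saline alone, and the microbead group received microbeads 15 µm across. The labels name each library as retina and do not say that the libraries are separate animals, and the study states more retinas per group than there are libraries here, so p-values measure the spread between these samples.

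Amacrine cells are the inhibitory interneurons of the inner retina, which shape the signals that bipolar cells pass to ganglion cells. Most release either GABA or glycine, and small specialised classes add a further transmitter, acetylcholine in starburst cells and dopamine in the dopaminergic cells. The transcription factors AP-2 alpha and AP-2 beta mark the amacrine class more broadly and do not take part in making or moving a transmitter.

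Total counts were 36085737, 46481382 and 37546884 in saline replicates 1 to 3, and 19834366, 13574949 and 15647739 in microbead replicates 1 to 3. Every microbead library was thus shallower than every saline library. Mitochondrially encoded genes took 3.19, 3.30 and 3.57% of counts in the saline libraries and 10.6, 8.90 and 9.97% in the microbead libraries. Sample titles run in a single series over both groups, in which all saline titles come before all microbead titles. The library names in the sample descriptions follow one pattern in saline and a different one in microbead retina. Any effect tied to the title order or to those names cannot be told apart from the injection.

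Saline replicate 1 stood apart from the other saline libraries in the members and in some marker lists. Over all genes it was saline replicate 3 that differed most from the others, with a chi-square per degree of freedom of 109 against saline replicate 1 and 61.6 against saline replicate 2, compared with 46.6 between saline replicates 1 and 2. All 9 members had their lowest saline level in saline replicate 1, against 32.8% of the 17707 genes tested, and 5 of the 9 had their lowest level of all 6 libraries there, against 12.2% of the tested genes. All 11 of the retinal ganglion cell markers were also lowest there among the saline libraries. The same held for all 8 Muller glia and all 6 pigment epithelium markers. The summed level of the 11 ganglion cell markers was 371 counts per 1000000 counts of the scaled library size (CPM) in saline replicate 1. It was 1072 and 1376 CPM in saline replicates 2 and 3, and 1244, 909 and 1149 CPM in the microbead libraries. Sncg, the ganglion cell marker with the highest level per kilobase, was at 23.3, 97.0 and 130 CPM in the saline libraries and 279, 161 and 191 CPM in the microbead libraries. The median log2 fold change of the 11 was 0.20 with 0 called by edgeR and 1 at an unadjusted p under 0.05, and without saline replicate 1 it was -0.23 with 2 called lower, Nefl and Slc17a6. The summed level of the 7 microglia markers ran the other way, at 172, 50.7 and 76.6 CPM in saline replicates 1 to 3 and 93.0, 93.5 and 42.2 CPM in the microbead libraries, with C1qa the highest per kilobase. The median log2 fold change of the 7 was -0.50 with 0 called by edgeR and 3 at an unadjusted p under 0.05, and 0.51 without saline replicate 1. No ganglion cell or microglia marker was at 0 in all libraries. The part of these cell types in the members' levels was not tested, and each member's fold change is given with and without saline replicate 1. Of the 19 calls named among genes of other lists, 18 also passed without saline replicate 1. Fits that left out another library kept fewer of these calls. Without saline replicate 2 only Sox2, Arr3, Aldh1l1 and Vwf passed, and without microbead replicate 3 not any of the 19 did.

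The comparison of saline with microbead retina asks how each gene's share of retinal RNA differed 4 weeks after injection. With edgeR, 0 of the 9 members passed an adjusted p of 0.05, against 12.8% of all tested genes. The 2261 genes called overall became 293 without saline replicate 2, 1480 without saline replicate 3, 748 or 768 without microbead replicate 1 or 2, and 46 without microbead replicate 3, and each of those fits called 0 members. At an unadjusted p under 0.05 the count was 2 of 9, Gad1 and Slc32a1, against 31.4% of tested genes. DESeq2 called 1 member, Gad1, against 17.9% of the genes it tested, and edgeR without the filter on low counts called Gad1 and Slc32a1, against 11.9%. Without saline replicate 1, edgeR called 3 members lower in microbead retina, Gad1, Gad2 and Slc32a1, against 7.3% of tested genes called lower. The saline and microbead libraries overlapped for all 9 members, while 37.8% of tested genes had groups that did not overlap. When saline replicate 1 was left out, 6 members lay lower in all 3 microbead libraries than in both remaining saline libraries, as did 26.5% of tested genes. Those 6 were Gad1, Gad2, Slc32a1, Slc6a9, Chat and Slc18a3, that is, each transmitter gene other than Th. That library was singled out after the values were seen, and leaving it out removes the lowest saline value of every member but of only 32.8% of tested genes, so the members' counts without it cannot be read against these shares. In whole retina, fewer cells of a type and less RNA per cell cannot be told apart.

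**Figure D1:**
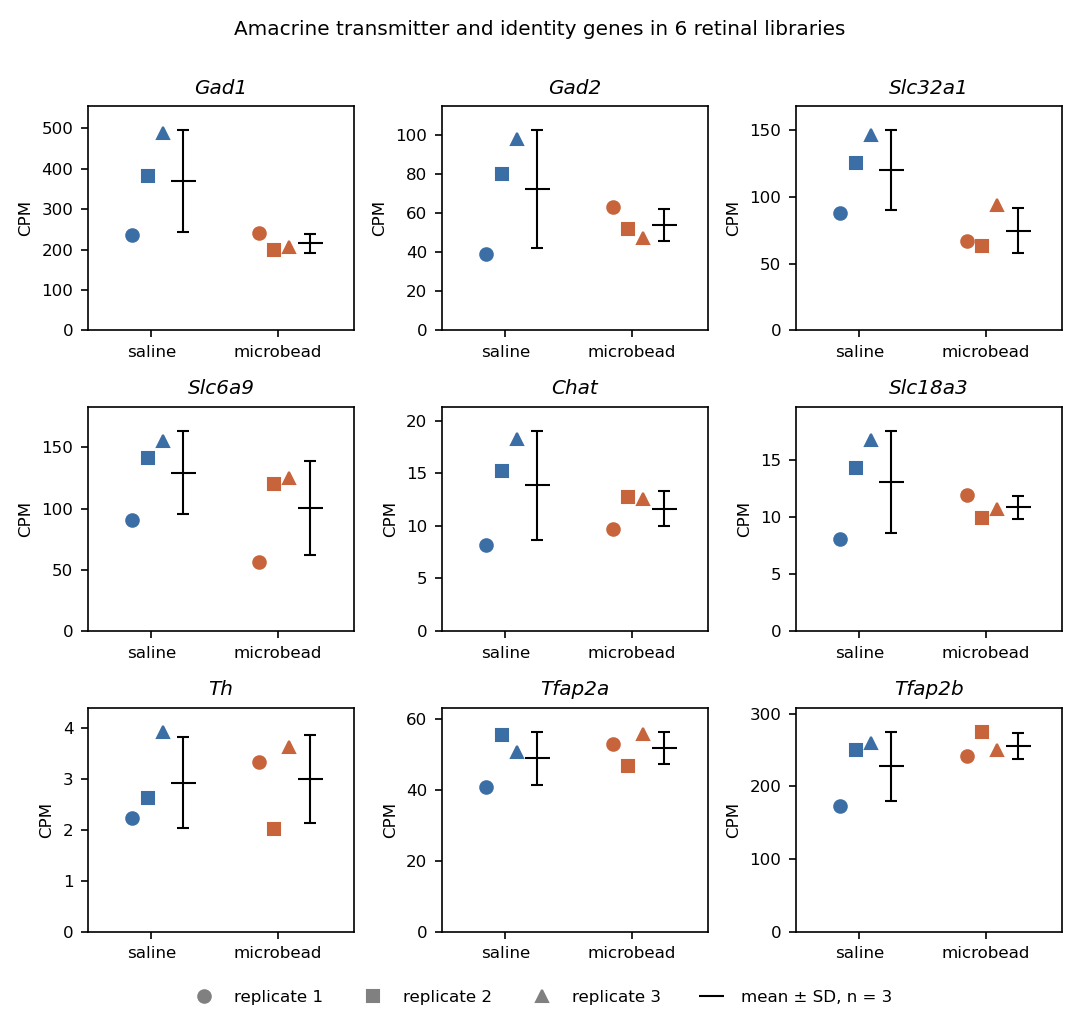
CPM of each of the 9 members in the 6 libraries, with a linear axis from 0 in each panel. Symbols mark the replicate number, blue the saline and orange the microbead group, and the black bar with whiskers is the mean ± SD (n = 3); in every panel the range of the saline libraries overlaps that of the microbead libraries, and saline replicate 1 is the lowest saline library.

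Gad1 encodes glutamate decarboxylase 67, an enzyme that makes GABA from glutamate. Its level was 237, 382 and 488 CPM in saline replicates 1 to 3 and 241, 198 and 207 CPM in microbead replicates 1 to 3. Saline replicates 2 and 3 lay well above all microbead libraries, whereas saline replicate 1 lay just under microbead replicate 1. Mean levels were 369 ± 126 CPM (SD, n = 3) in saline and 215 ± 23.0 CPM (SD, n = 3) in microbead retina. The log2 fold change was -0.78 with a standard error of 0.25 and a 95% interval from -1.34 to -0.21, which did not pass the test over all genes (edgeR adjusted p = 0.072). Without saline replicate 1 it was -1.02 (edgeR adjusted p = 0.0155), and with DESeq2 on all libraries the adjusted p was 0.0298. Leaving out saline replicate 3 gave -0.52 (edgeR adjusted p = 0.179). Over all alternatives its adjusted p ran from 0.00744 to 0.206.

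Gad2 encodes glutamate decarboxylase 65, the isoform tied to synaptic terminals. It stood at 39.1, 79.9 and 97.6 CPM in the saline libraries and at 62.9, 51.7 and 47.2 CPM in the microbead libraries. Saline replicate 1 was the lowest of the 6 libraries and the other saline libraries were the highest, so that the microbead libraries lay between them. Its log2 fold change was -0.42 with a standard error of 0.30 and a 95% interval from -1.09 to 0.25 (edgeR adjusted p = 0.370). It was -0.72 without saline replicate 1 (edgeR adjusted p = 0.0444) and -0.14 without saline replicate 3 (edgeR adjusted p = 0.782), the lowest and the highest adjusted p under the alternatives.

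Slc32a1 encodes the vesicular inhibitory amino acid transporter, which loads both GABA and glycine into synaptic vesicles. Its levels were 87.6, 125 and 147 CPM in saline and 67.0, 63.5 and 93.9 CPM in microbead retina. The groups met at a single pair of libraries, since microbead replicate 3 exceeded saline replicate 1 and no other microbead library did. Means were 120 ± 29.9 CPM (SD, n = 3) in saline and 74.8 ± 16.6 CPM (SD, n = 3) in microbead retina. For Slc32a1 the log2 fold change was -0.68 with a standard error of 0.24 and a 95% interval from -1.21 to -0.15 (edgeR adjusted p = 0.0829). Without saline replicate 1 it was -0.87 (edgeR adjusted p = 0.0314), without saline replicate 3 it was -0.51 (edgeR adjusted p = 0.194), and over all alternatives the adjusted p ran from 0.0155 to 0.230.

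Among 8 other genes of GABA handling edgeR called 1. Aldh5a1, which encodes the mitochondrial enzyme that completes the breakdown of GABA, fell from 36.3, 53.1 and 58.6 CPM to 27.7, 32.3 and 27.9 CPM (log2 fold change -0.75, standard error 0.21, edgeR adjusted p = 0.0455), and it passed in 1 of the 6 fits that left out 1 library, the fit without saline replicate 1. With all libraries it did not pass in 5 of the 9 alternatives, its adjusted p reaching 0.0703. The list's median log2 fold change was -0.32, against -0.03 over all tested genes. Without saline replicate 1 it was -0.59, against -0.00843 over all genes of that fit, and edgeR called 3 lower, Abat, Aldh5a1 and Slc38a1. Saline replicate 1 was the lowest saline library for 7 of the 8. Slc38a3, a glutamine transporter with the highest level per kilobase on the list, had a log2 fold change of 0.10 (edgeR adjusted p = 0.743). All 14 subunits of GABA-A and GABA-C receptors were tested and 0 were called by edgeR, 3 of them having an unadjusted p under 0.05; their median was -0.29, and without saline replicate 1 it was -0.48 and edgeR called 3 lower. Gabrr1, with the highest level per kilobase among them, was at 114 ± 24.0 CPM in saline and 114 ± 7.51 CPM in microbead retina (SD, n = 3 each).

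Slc6a9 encodes the glycine transporter GlyT1, by which glycinergic amacrine cells take up glycine. It was measured at 90.9, 142 and 155 CPM in saline and at 56.6, 120 and 125 CPM in microbead retina. Each group held 1 library well below the others, replicate 1 in both, and microbead replicate 1 was the lowest of all. Slc6a9 had a log2 fold change of -0.37 with a standard error of 0.31 and a 95% interval from -1.06 to 0.33 (edgeR adjusted p = 0.455). It was -0.57 without saline replicate 1 (edgeR adjusted p = 0.221), -0.21 without saline replicate 3 (edgeR adjusted p = 0.715) and -0.085 without microbead replicate 1 (edgeR adjusted p = 0.847), and no alternative called it. Exons of Slc6a9 (chr4:117834506-117875198, plus strand, GRCm38) share 27.8% of their bases with Ccdc24 on the opposite strand. Ccdc24 was at 38.0, 26.2 and 18.2 CPM in saline and rose to 68.8, 64.8 and 69.7 CPM in microbead retina (log2 fold change 1.30, edgeR adjusted p = 0.0174). Whether the counting used strand is not given in the sources used here, so reads over the shared bases cannot be assigned with certainty, and the part of Ccdc24 in the Slc6a9 count was not tested.

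Of 8 genes that make, cleave or carry glycine, 1 was called higher and 1 lower, with a median of 0.44 (0.33 without saline replicate 1). Both encode parts of the glycine cleavage system of mitochondria, which breaks glycine down. Amt rose from 37.1, 29.2 and 22.5 CPM to 54.2, 56.2 and 62.0 CPM (log2 fold change 0.96, standard error 0.21, edgeR adjusted p = 0.0227) and passed in 2 of the 6 fits that left out 1 library. Gldc fell from 45.4, 31.4 and 46.6 CPM to 21.9, 25.3 and 26.6 CPM (log2 fold change -0.74, standard error 0.20, edgeR adjusted p = 0.0432) and passed in 0 of those 6 edgeR fits, its adjusted p being 0.0722 without saline replicate 1. With all libraries Gldc did not pass in 4 of the 9 alternatives, its adjusted p reaching 0.0766. Dld, a shared subunit with the highest level per kilobase on the list, had a log2 fold change of 0.24 (edgeR adjusted p = 0.375). Among 5 glycine receptor subunits edgeR called 0, although 3 had an unadjusted p under 0.05 and the median was -0.71 (-0.99 without saline replicate 1, where 3 were called lower). Glrb, the beta subunit, had a log2 fold change of -0.52 (edgeR adjusted p = 0.219), and -0.78 without saline replicate 1 (edgeR adjusted p = 0.0348).

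Chat encodes choline acetyltransferase, which makes acetylcholine and in the retina marks the starburst amacrine cells. Its level was 8.15, 15.2 and 18.2 CPM in saline and 9.73, 12.7 and 12.5 CPM in microbead retina, from 176 to 733 counts per library. As for Gad2, the microbead libraries lay between saline replicate 1 and the other saline libraries. For Chat the log2 fold change was -0.25 with a standard error of 0.30 and a 95% interval from -0.93 to 0.43 (edgeR adjusted p = 0.610). Leaving out saline replicate 1 gave -0.52 (edgeR adjusted p = 0.157), leaving out saline replicate 3 gave -0.0082 (edgeR adjusted p = 0.990), and leaving out microbead replicate 1 gave -0.14 (edgeR adjusted p = 0.820).

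Slc18a3 encodes the vesicular acetylcholine transporter, and its single exon (chr14:32462438-32464850, minus strand) lies inside the Chat gene (chr14:32408203-32465989, same strand) without sharing an exonic base with it. It was at 8.07, 14.4 and 16.8 CPM in saline and at 11.9, 9.89 and 10.7 CPM in microbead retina. Here too saline replicate 1 was the lowest library and saline replicates 2 and 3 were the highest. The log2 fold change was -0.27 with a standard error of 0.29 and a 95% interval from -0.91 to 0.37 (edgeR adjusted p = 0.561). Without saline replicate 1 it was -0.52 (edgeR adjusted p = 0.1499), without saline replicate 3 it was -0.050 (edgeR adjusted p = 0.933), and no alternative called either Chat or Slc18a3.

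Among 8 other genes of cholinergic and starburst cells, edgeR called 0 higher and 2 lower. Sox2, a transcription factor of starburst cells that Muller glia also express, fell from 49.4 ± 16.7 to 21.2 ± 0.581 CPM (SD, n = 3 each; log2 fold change -1.22, edgeR adjusted p = 0.0175). Megf10, a receptor that spaces starburst cells and is also made by horizontal cells, fell from 45.3 ± 9.98 to 22.2 ± 3.31 CPM (SD, n = 3 each; log2 fold change -1.03, edgeR adjusted p = 0.0195). Each passed in 3 of the 6 fits that left out 1 library. The 8 Muller glia markers, none of them at 0, summed to 4146, 5775 and 8577 CPM in saline and 4814, 4811 and 4171 CPM in microbead retina. All 8 had negative log2 fold changes with a median of -0.33 (-0.54 without saline replicate 1). Of the 8, 1 was called, Dkk3 (log2 fold change -1.03, edgeR adjusted p = 0.0242), while Glul, the highest per kilobase, had -0.31 (edgeR adjusted p = 0.491). The part of Muller glia in the value of Sox2 was not tested. Ache, the acetylcholine-degrading enzyme and highest per kilobase of the starburst list, had a log2 fold change of 0.09 (edgeR adjusted p = 0.768). Of 12 tested acetylcholine receptors 1 was called, Chrm3, at 12.4 ± 1.06 CPM in saline and 5.57 ± 2.33 CPM in microbead retina (SD, n = 3 each; log2 fold change -1.16, edgeR adjusted p = 0.0428, passing in 2 of the 6 fits with 1 library left out). Chrna6, the highest per kilobase, had -0.28 (edgeR adjusted p = 0.635), or -0.64 without saline replicate 1 (edgeR adjusted p = 0.0690), and the median was -0.23, or -0.49 without that library.

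Th encodes tyrosine hydroxylase, the rate-limiting enzyme of dopamine synthesis, which marks a sparse amacrine class. It had the lowest level per kilobase of the 9 members, with 84, 127 and 138 counts in saline and 65, 28 and 56 counts in microbead retina. On the CPM scale this came to 2.23, 2.63 and 3.94 in saline and 3.35, 2.02 and 3.64 in microbead retina. The groups covered nearly the same range, and the lowest library was microbead replicate 2. For Th the log2 fold change was 0.04 with a standard error of 0.38 and a 95% interval from -0.82 to 0.90 (edgeR adjusted p = 0.961). It was -0.13 without saline replicate 1 (edgeR adjusted p = 0.862) and 0.30 without saline replicate 3 (edgeR adjusted p = 0.671), and its sign changed in 6 of the 15 alternatives. The interval leaves room for a change of either sign, and no difference in Th was detected.

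Of 11 other genes of dopamine handling, 9 were tested and edgeR called 0, 3 having an unadjusted p under 0.05, with a median of -0.48 (-0.60 without saline replicate 1). Slc6a3, the dopamine transporter, was not among the tested genes, and its level was between 0.0722 and 0.292 CPM. Qdpr, which regenerates the cofactor of tyrosine hydroxylase and was the highest per kilobase, had a log2 fold change of -0.58 (edgeR adjusted p = 0.0984), and -0.68 without saline replicate 1 (edgeR adjusted p = 0.0725). Among 4 tested dopamine receptors Drd4, a receptor of photoreceptors and the highest per kilobase, fell from 236, 164 and 213 CPM to 107, 115 and 127 CPM (log2 fold change -0.81, edgeR adjusted p = 0.0264), passing in 2 of the 6 fits with 1 library left out.

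Tfap2a encodes AP-2 alpha. It was at 40.9, 55.5 and 50.8 CPM in saline and at 53.1, 46.9 and 55.9 CPM in microbead retina. Apart from saline replicate 1, the lowest library, the groups were interleaved. The log2 fold change was 0.08 with a standard error of 0.18 and a 95% interval from -0.32 to 0.48 (edgeR adjusted p = 0.789), the narrowest interval of the 9 members. Leaving out saline replicate 1 gave -0.04 (edgeR adjusted p = 0.918), and leaving out saline replicate 2 gave 0.18 (edgeR adjusted p = 0.681).

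Tfap2b encodes AP-2 beta, which amacrine and horizontal cells express. Its levels were 173, 250 and 259 CPM in saline and 242, 275 and 250 CPM in microbead retina. Saline replicate 1 was again the lowest library, and the other 5 lay within a narrow range. The log2 fold change was 0.17 with a standard error of 0.19 and a 95% interval from -0.27 to 0.61 (edgeR adjusted p = 0.593). It was 0.00189 without saline replicate 1 (edgeR adjusted p = 0.995) and 0.27 without saline replicate 3 (edgeR adjusted p = 0.452).

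Of 21 other transcription factors of amacrine cells or their precursors, 19 were tested, 1 was called higher and 3 lower, and the median was -0.00239 (-0.16 without saline replicate 1). Neurod1, which photoreceptors also express and which was the highest per kilobase, rose from 328 ± 84.7 to 589 ± 17.1 CPM (SD, n = 3 each; log2 fold change 0.85, edgeR adjusted p = 0.0322). Tcf4 fell from 213 ± 32.6 to 102 ± 20.7 CPM (SD, n = 3 each; log2 fold change -1.06, edgeR adjusted p = 0.0179). Prdm13, a regulator of amacrine fate, fell from 29.5, 41.3 and 48.0 CPM to 18.0, 17.2 and 23.6 CPM (log2 fold change -1.02, edgeR adjusted p = 0.0250). Nfib fell with a log2 fold change of -0.91 (edgeR adjusted p = 0.0258). Pax6 was not called, at 244, 331 and 314 CPM in saline and 419, 486 and 425 CPM in microbead retina. Its log2 fold change was 0.58 (edgeR adjusted p = 0.0640), or 0.46 without saline replicate 1 (edgeR adjusted p = 0.146). Of the 19 tested, 10 had negative log2 fold changes. Neurod1 and Prdm13 passed in 1 of the 6 fits with 1 library left out, Nfib in 2 and Tcf4 in 4. Of 14 peptides and other markers of amacrine subtypes, Npy was called higher (log2 fold change 1.16, edgeR adjusted p = 0.0261, passing in 3 of those fits) and Gjd2, a gap junction channel, lower (-0.73, edgeR adjusted p = 0.0323, passing in 1). The median was 0.09 (-0.02 without saline replicate 1), and Calb2, the highest per kilobase, had 0.44 (edgeR adjusted p = 0.464), or 0.09 without saline replicate 1 (edgeR adjusted p = 0.854).

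**Figure D2:**
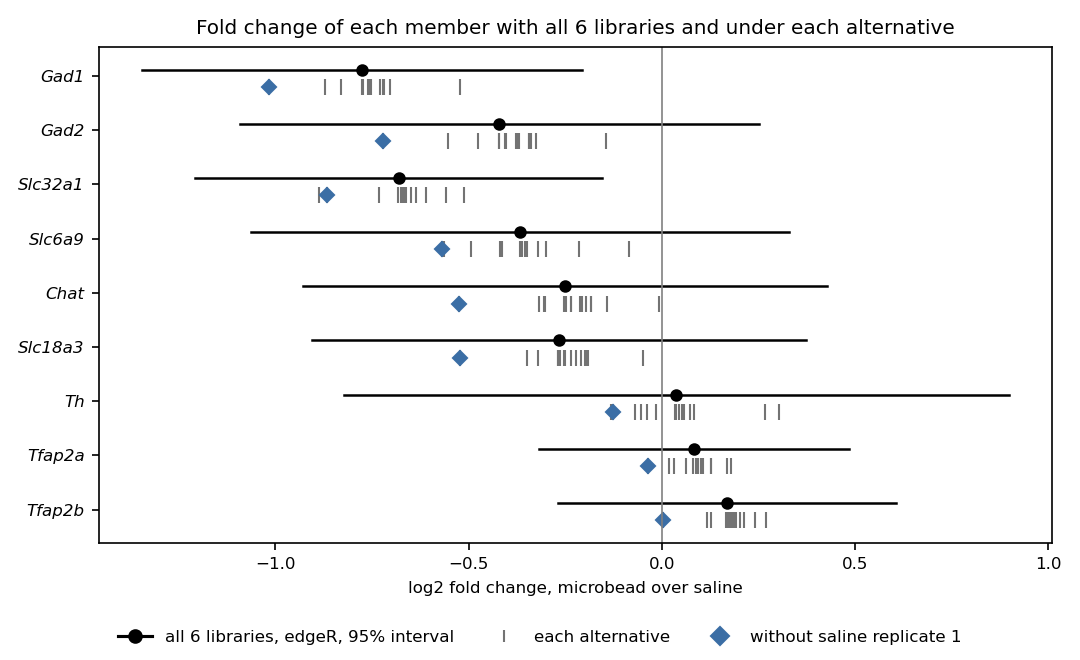
Log2 fold change, microbead over saline, of each of the 9 members. Black points with lines are the edgeR estimate and its 95% interval with all 6 libraries, grey ticks the 15 alternatives and blue diamonds the fit without saline replicate 1; the intervals of Gad1 and Slc32a1 lie below 0 before adjustment over all genes, and those of the other members cross 0.

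The 9 members differed widely in level, and per kilobase of exon their saline means covered 48.3 ± 16.5 CPM per kb for Gad1 to 1.24 ± 0.377 CPM per kb for Th (SD, n = 3 each). Between them came Slc32a1 at 42.9 ± 10.7, Tfap2b at 35.9 ± 7.49, Slc6a9 at 25.2 ± 6.61, Gad2 at 12.3 ± 5.11, Tfap2a at 10.01 ± 1.53, Slc18a3 at 5.42 ± 1.86 and Chat at 2.95 ± 1.10 CPM per kb (SD, n = 3 each). Gad1 and Slc32a1 were not separated beyond their spread, Gad1 being the higher in 4 of the 6 libraries. Both exceeded Tfap2b in all 3 saline libraries and lay below it in all 3 microbead libraries. Gad2 and Tfap2a were not separated either, Gad2 being the higher in 2 of the 6 libraries. Every other step in the order held in all 6 libraries. In microbead retina the highest mean was that of Tfap2b, at 40.3 ± 2.77 CPM per kb, followed by Gad1 at 28.2 ± 3.01 and Slc32a1 at 26.7 ± 5.94 CPM per kb (SD, n = 3 each). These lengths count all annotated exons of a gene, which understates the level of a gene whose retinal transcripts use few of them.

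Ratios between members within a library do not depend on how libraries are scaled, and 5 were compared, as log2 of CPM over CPM. For Gad2 to Gad1 the ratio was -2.60, -2.26 and -2.32 in saline and -1.94, -1.94 and -2.13 in microbead retina. All 3 microbead libraries thus held more Gad2 relative to Gad1 than any saline library, by 0.39 on average, with an exact two-sided permutation p of 0.1, the smallest that 3 against 3 allows, and 0.5 after adjustment over the 5 ratios. Since the groups did not overlap, leaving out 1 library could not turn the direction, and the differences then ran from 0.286 to 0.456. How often ratios between other genes separate the groups was not counted.

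The other 4 ratios had groups that overlapped. Slc18a3 to Chat was -0.01, -0.08 and -0.12 in saline and 0.30, -0.36 and -0.23 in microbead retina, so that the microbead libraries scattered to both sides of the saline libraries (exact two-sided permutation p = 1). Slc32a1 to the sum of Gad1 and Gad2 was -1.65, -1.88 and -1.999 in saline and -2.18, -1.97 and -1.44 in microbead retina (exact two-sided permutation p = 1). Its mean was -1.84 ± 0.18 in saline and -1.86 ± 0.39 in microbead retina (SD, n = 3 each), a difference far smaller than the spread. Slc6a9 to Slc32a1 was 0.05, 0.17 and 0.09 in saline and -0.24, 0.91 and 0.41 in microbead retina (exact two-sided permutation p = 0.6). The saline libraries agreed closely and the microbead libraries did not, with SDs of 0.06 and 0.58. Tfap2a to Tfap2b averaged -2.20 ± 0.14 in saline and -2.30 ± 0.22 in microbead retina (SD, n = 3 each; exact two-sided permutation p = 0.6).

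A further description, chosen after the values were seen and given with no test, sets each transmitter gene against the summed CPM of Tfap2a and Tfap2b in the same library. For Gad1 this log2 ratio was 0.15, 0.32 and 0.66 in saline and -0.29, -0.70 and -0.56 in microbead retina. For Slc32a1 it was -1.29, -1.29 and -1.08 in saline and -2.14, -2.34 and -1.70 in microbead retina. The level of both AP-2 genes was itself lowest in saline replicate 1, which raises the ratio in that library. Slc6a9 was at -1.23, -1.11 and -0.99 in saline and -2.38, -1.43 and -1.29 in microbead retina. For these 3 of the 7 transmitter genes every microbead library lay below every saline library, as did 24.3% of the tested genes on the same ratio. For Gad2, Chat, Slc18a3 and Th the groups overlapped, with mean differences of -0.50, -0.35, -0.38 and -0.14.

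**Figure D3:**
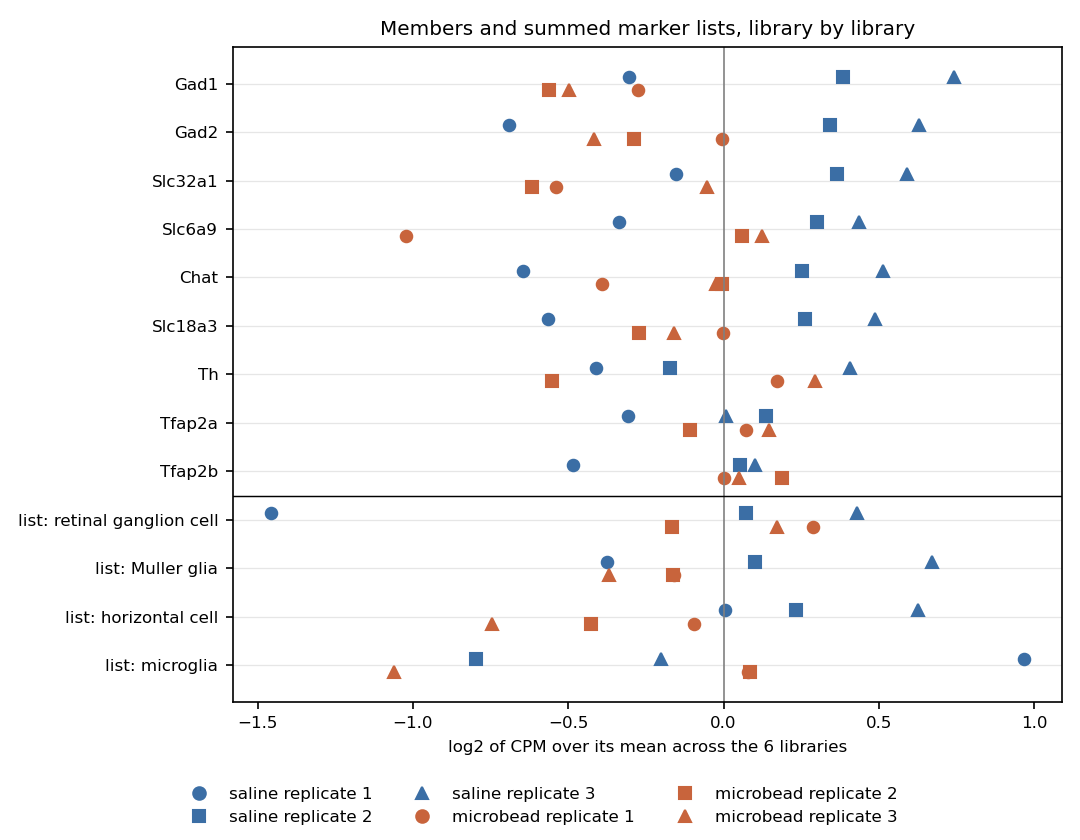
Level of each member, and below the line the summed level of 4 marker lists, as log2 of CPM over its mean across the 6 libraries. Symbols mark the replicate number, blue the saline and orange the microbead group. Saline replicate 1 is the lowest saline library for all 9 members and the highest library for the microglia list. It is the lowest of all libraries for the retinal ganglion cell list and, just below microbead replicate 3, for the Muller glia list.

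Across the 6 libraries, log2 levels of the members correlated positively in all 36 pairs, with Pearson r from 0.0475 to 0.979 and a median of 0.587. These libraries include both groups and share the scaling, so r is a description only. The closest pair was Gad2 and Slc18a3 (r = 0.979, n = 6), while Chat and Slc18a3, which share a locus, had r = 0.850 and Gad1 and Gad2 had r = 0.880. Among the 6 transmitter genes other than Th the median r was 0.702 over 15 pairs, and between those 6 and Th, Tfap2a or Tfap2b it was 0.460 over 18 pairs. With each member centred and scaled to an SD of 1, the mean profile was -1.08, 0.63 and 1.09 in saline and -0.29, -0.42 and 0.08 in microbead retina. The spread of this profile was thus widest within the saline group. Among tested genes of at least 1 CPM, the 5 most like it over the 6 libraries were Sez6l (r = 0.994), Spock2 (0.992), Islr2 (0.990), Prkar1b (0.989) and Spock1 (0.988). Sez6l was at 33.2, 69.2 and 90.4 CPM in saline and at 43.0, 42.9 and 55.0 CPM in microbead retina, and edgeR called 0 of the 5, their adjusted p-values running from 0.359 to 0.465.

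Markers of the other retinal cell types were read beside the members. Horizontal cells also use GABA, and all 5 of their markers had negative log2 fold changes with a median of -0.97 (-1.23 without saline replicate 1) and none at 0. Their summed level was 106, 124 and 163 CPM in saline and 98.9, 78.5 and 63.0 CPM in microbead retina. These ranges did not overlap, as was so for 37.8% of single tested genes. Summed levels also did not overlap for the endothelial, cholinergic and starburst, and dopamine receptor lists, which were lower in microbead retina. The glycine handling and amacrine transcription factor lists did not overlap either, and both were higher in microbead retina. Onecut2 fell (log2 fold change -1.36, edgeR adjusted p = 0.0335), and Calb1, the highest per kilobase, which amacrine cells share, had -0.61 (edgeR adjusted p = 0.154). The part of horizontal cells in the levels of Gad1, Gad2, Slc32a1 and Megf10 was not tested.

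Bipolar cell markers gave 0 calls by edgeR among 8, with 2 at an unadjusted p under 0.05 and a median of -0.09. Without saline replicate 1 the median was -0.16 and 1 marker was called lower, Vsx1 (edgeR adjusted p = 0.0464). Of 9 rod markers 1 was called, Nrl, which was lower in microbead retina (log2 fold change -0.97, edgeR adjusted p = 0.0192). Of 8 cone markers, led by Opn1sw, 4 had negative log2 fold changes and the median was 0.06, and Arr3 alone was called, higher (1.44, edgeR adjusted p = 0.0126). Of 7 endothelial markers, led by Kdr, 4 were called lower, Vwf the most (-1.73, edgeR adjusted p = 0.0227). The 3 astrocyte markers had a median of 0.31 (0.087 without saline replicate 1), and Aldh1l1 was called lower (-1.23, edgeR adjusted p = 0.0307). Gfap, the highest per kilobase, had 0.31 and Pax2 0.39, or 0.54 and 0.087 without saline replicate 1. With 1 library left out, Arr3 passed in 5 of the 6 fits, Vwf in 4, Nrl and Aldh1l1 in 3, and Onecut2 and Dkk3 in 2. The 6 pigment epithelium markers, led by Ttr, summed to 11.8, 55.8 and 243 CPM in saline and 123, 103 and 116 CPM in microbead retina. With all libraries 0 were called by edgeR and 0 had an unadjusted p under 0.05, and the median was -0.03 (-0.55 without saline replicate 1). Ttr was called higher without saline replicate 3 (log2 fold change 1.996, edgeR adjusted p = 0.0397). Saline replicates 1 and 3, the lowest and highest saline libraries for the mean profile of the 9 members, were thus also the lowest and highest for these markers, whose part in the members' levels was not tested.

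By position, Gad1 (chr2:70553072-70602014), Gad2 (chr2:22622205-22693874) and Slc32a1 (chr2:158610767-158615748) all lie on the plus strand of chromosome 2 in GRCm38, far apart from each other. Slc32a1 shares 24.9% of its exonic bases with Gm14205 on the opposite strand, which held from 0 to 2 counts in any library. Tfap2a (chr13:40715302-40738376, minus strand) shares 7.75% with Gm26688 on the opposite strand, at 1.142 to 2.79 CPM. Of 100-base stretches of Gad1 transcripts, 0.104% also occur in the pseudogene Gad1-ps, and none of those of the other 8 members occurs, read in the same direction, in a transcript of another gene. Th (chr7:142892752-142931128, minus strand) and Tfap2b (chr1:19208914-19238576, plus strand) share no exonic base with another gene.

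All 9 members have at least 1 promoter window in RefSeq (GRCm38.p6), 12 windows in all, each from 250 bases before to 50 after the annotated start. They were searched on both strands for GCCNNNGGC, letters that AP-2 factors are known to bind, for the cyclic AMP response element TGACGTCA and for TATAAA, and no match of one motif overlapped a match of another in these windows. GCCNNNGGC occurs in 16.6% of all 32851 windows, and in 2 of the 12, those of Gad2 and Slc18a3. TGACGTCA occurs in 1.79% of all windows and among the members in that of Th, 45 bases before the start. TATAAA occurs in 13.6% of all windows and among the members in that of Gad1, on the opposite strand, 141 bases before the start. A match is a description of the letters and not of binding. The ratio of Gad2 to Gad1 separated the groups but did not pass its test (exact two-sided permutation p = 0.5 after adjustment). Windows of the nested cholinergic pair lie 759 bases apart. The windows of both glutamate decarboxylases and of the cholinergic pair are printed in the direction of transcription with GCCNNNGGC matches in capitals. They lie at chr2:70561879-70562178 (Gad1), chr2:22622077-22622376 (Gad2), chr14:32465860-32466159 (Chat) and chr14:32464801-32465100 (Slc18a3). In Slc18a3 the first capitals hold 2 overlapping matches, and another match lies nearer the start.
Gad1: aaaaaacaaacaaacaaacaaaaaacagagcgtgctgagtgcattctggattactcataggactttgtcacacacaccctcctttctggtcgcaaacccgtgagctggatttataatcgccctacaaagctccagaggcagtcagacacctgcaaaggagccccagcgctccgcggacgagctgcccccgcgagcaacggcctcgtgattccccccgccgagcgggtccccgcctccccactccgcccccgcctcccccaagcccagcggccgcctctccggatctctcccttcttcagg
Gad2: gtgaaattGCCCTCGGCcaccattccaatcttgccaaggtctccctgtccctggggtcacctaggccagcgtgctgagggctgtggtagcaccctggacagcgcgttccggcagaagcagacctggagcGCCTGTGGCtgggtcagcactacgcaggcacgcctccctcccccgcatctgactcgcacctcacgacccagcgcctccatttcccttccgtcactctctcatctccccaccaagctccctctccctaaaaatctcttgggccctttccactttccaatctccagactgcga
Chat: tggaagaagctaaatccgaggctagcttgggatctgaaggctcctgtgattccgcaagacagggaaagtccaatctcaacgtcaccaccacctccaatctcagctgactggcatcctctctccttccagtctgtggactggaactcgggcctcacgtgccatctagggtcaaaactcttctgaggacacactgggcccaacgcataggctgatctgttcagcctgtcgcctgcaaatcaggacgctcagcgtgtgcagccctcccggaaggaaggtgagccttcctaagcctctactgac
Slc18a3: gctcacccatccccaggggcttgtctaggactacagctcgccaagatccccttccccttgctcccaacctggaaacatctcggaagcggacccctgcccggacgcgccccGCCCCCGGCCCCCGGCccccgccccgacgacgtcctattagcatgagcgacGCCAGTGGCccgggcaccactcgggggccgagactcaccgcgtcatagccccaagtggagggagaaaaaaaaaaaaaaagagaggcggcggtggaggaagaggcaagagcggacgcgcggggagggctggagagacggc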

How the data were processed

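Raw gene counts were deposited by the authors for 6 retinal libraries made from polyadenylated RNA with a stranded kit. The submitters' processing notes name STAR 2.5.3a, featureCounts 1.15.2, DESeq2 1.14 and GRCm38.p5, and strand and multi-mapped read settings of the counting are not given in the sources used here. Columns with the authors' own fold changes and p-values were not used. The count table was fitted as a whole with edgeR 4.0.16 in R 4.3.3 (filterByExpr, TMM scaling, quasi-likelihood test, Benjamini-Hochberg adjustment over all tested genes, threshold 0.05, group as the only term), after a check on simulated counts. CPM use TMM-scaled library sizes, exon lengths come from a GRCm38 annotation, and intervals are 95%. A level of 3 counts corresponds to 0.0622 to 0.217 CPM.

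No pair of libraries within a group agreed within sampling noise, as a library deposited more than once would. Named genes are the 9 members, up to 4 called genes with the largest log2 fold change and at least 1 CPM of each of 10 pathway lists, the most abundant gene per kilobase of each list, the called gene with the largest change of each of 10 marker lists, and the 5 genes most correlated with the members. Some genes that this rule names are not reported here. Ccdc24, the antisense genes and other named genes outside this rule were chosen by position or after their values were seen. Members and lists were chosen with earlier results of these data known. Alternatives were no filter, a filter of 10 counts in every library, scaling by RLE, by upper quartiles or after removal of the 100 most abundant genes, DESeq2 1.42.0, limma-voom (limma 3.58.1), a replicate block, thinning to the smallest total and each library left out.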

Additional observations from a re-analysis of the deposited data

How the results depend on the processing

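Over 15 alternatives, Gad1, Gad2, Slc32a1, Slc6a9, Chat and Slc18a3 had a negative log2 fold change in each, and Tfap2b a positive one, but with 1 library left out these came as near to 0 as -0.52, -0.14, -0.51, -0.085, -0.0082, -0.050 and 0.0019, in that order. The number of members called was 2 without the filter on low counts, 1 with DESeq2, from 0 to 3 with 1 library left out, and 0 in every other alternative. The number of genes called was 3720 without the filter, 3621 with DESeq2, and from 46 to 2621 with 1 library left out, the lowest without microbead replicate 3 and the highest without saline replicate 1. Without the filter, genes of few counts enter, the median log2 fold change of all genes is -0.23 in place of -0.03, and 40.6% of calls are higher in place of 50.6%. Among named genes of other lists, edgeR without the filter also called Sncg higher (log2 fold change 1.27, edgeR adjusted p = 0.000393). In that fit Calb1 (-0.67, edgeR adjusted p = 0.0338) and Qdpr (-0.63, edgeR adjusted p = 0.0396) were called lower. The cause of these differences was not tested.

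The replicate numbers 1 to 3 recur in both groups. Deviations of same-numbered libraries from their group means correlated at -0.04, 0.14 and 0.01, so the numbers were not taken as pairs, and not every library correlated best with its own number. With the replicate block edgeR called 905 genes and 0 members, and 11 of the 19 named list calls did not pass, with adjusted p-values from 0.0529 to 0.0766. Besides those of Aldh5a1 and Gldc, the only other such call lost with all libraries and no block was that of Aldh1l1 with limma-voom (adjusted p = 0.0580).

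Among values that passed no test with all 6 libraries, some changed sign. Th had a log2 fold change of -0.016 without the filter, -0.070 after thinning and from -0.13 to 0.30 with 1 library left out. Gabrr1 had 0.0075 with RLE factors, 0.034 with upper-quartile factors, 0.0031 with at least 10 counts in every library, 0.0080 with limma-voom, 0.0083 with the replicate block and 0.036 after thinning. C1qa had -0.039 without the filter. With 1 library left out, log2 fold changes ran from -0.036 to 0.18 for Tfap2a, -0.027 to 0.19 for Slc38a3, -0.053 to 0.17 for Ache, -0.15 to 0.16 for Gabrr1, -0.64 to 0.092 for Chrna6, -0.57 to 0.054 for Glul, -0.37 to 0.98 for C1qa and -0.151 to 1.996 for Ttr. Differences in ratio ran from -0.22 to 0.11 for Slc18a3 to Chat, -0.23 to 0.14 for Slc32a1 to Gad1 plus Gad2, -0.020 to 0.56 for Slc6a9 to Slc32a1 and -0.17 to 0.028 for Tfap2a to Tfap2b.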
